A study of Mus musculus with 8 samples.

Results

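A set of 8 genes that mark cholangiocytes and hepatic progenitor cells were followed through bulk liver RNA of Brap LKO and control mice. The genes are Sox9, Epcam, Spp1, Cftr, Prom1, Cd24a, Sorbs2 and Spint2, and they were taken by symbol, so that 8 of the 24451 rows in the table of normalized counts are described. Brap LKO mice carry a Brap allele with loxP sites around exons 2 and 3 together with Cre driven by the Albumin promoter, which acts in hepatocytes and in the cells of their lineage. Brap F/F controls carry the same floxed allele and no Cre. Each group held 4 mice on the C57BL/6 strain, all 18 wk old, fasted for 6 h, and the left lobe was sequenced. The mice were male. Brap encodes a ubiquitin ligase that binds BRCA1, and the study asked how its loss in hepatocytes changes the liver.

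Cholangiocytes are the epithelial cells that line the bile ducts. They arise in the embryo from the same bipotent hepatoblasts as hepatocytes, under Notch signaling and SOX9, and they modify bile by secreting chloride, bicarbonate and water. In an injured liver, small cells with ductal features spread from the portal tracts in what is called the ductular reaction, and hepatocytes can also switch on part of the biliary programme, a step that YAP and Notch promote. The genes below are therefore used as markers of ducts, of progenitor-like cells and of hepatocytes with ductal features. In bulk RNA, more cells of a type and more RNA per cell cannot be told apart.

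The depth was 26280884 to 33313914 counted reads a liver. Normalized counts are those reads divided by a size factor for each liver, and limma was run on log2(normalized count + 1), where 15352 genes averaged at least 5. A gene was called at a Benjamini-Hochberg adjusted p under 0.05 over all genes tested, and fold changes are on this log2 scale, Brap LKO minus Brap F/F. The count over the whole Brap gene lay between 3641 and 4203 in the Brap LKO livers and between 3994 and 4410 in the controls (log2 fold change -0.07, SE 0.07, limma adjusted p = 0.631). Reads outside exons 2 and 3 and from cells without Cre are part of that count, so it does not check the deletion.

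All 8 genes were tested, and all 8 had a fitted log2 fold change above 0, where 48.0% of all genes tested did. The genes were chosen with earlier results of these data known. The shares over all genes tested are therefore given for reference and are not a test of the set. The median over the 8 genes was 0.92 and the median over all genes tested was -0.01. Cftr, the chloride channel of the duct cell, was the 1 gene called higher by limma, beside a background of 0.664% of all genes tested. Its mean was 14.1 in the Brap LKO and 1.03 in the Brap F/F livers. It thus passed the filter only through the group where it was higher. In a fit without the filter Cftr was also called (limma adjusted p = 0.0263). None was called lower (0 of 8, with 0 at an unadjusted p under 0.05 and 0 by edgeR or DESeq2), and the background there was 0.104%. At an unadjusted p under 0.05, 6 of the 8 genes were higher (all but Sorbs2 and Spint2), where the background was 9.23%. In Epcam, Cftr and Cd24a every Brap LKO liver lay above every Brap F/F liver, which held for 5.48% of all genes tested. A count test on the reads themselves called 1 of the 8 genes with edgeR (Cftr, background 0.703%) and 3 of the 8 with DESeq2 (Cftr, Cd24a and Epcam, background 2.96%).

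**Figure D1:**
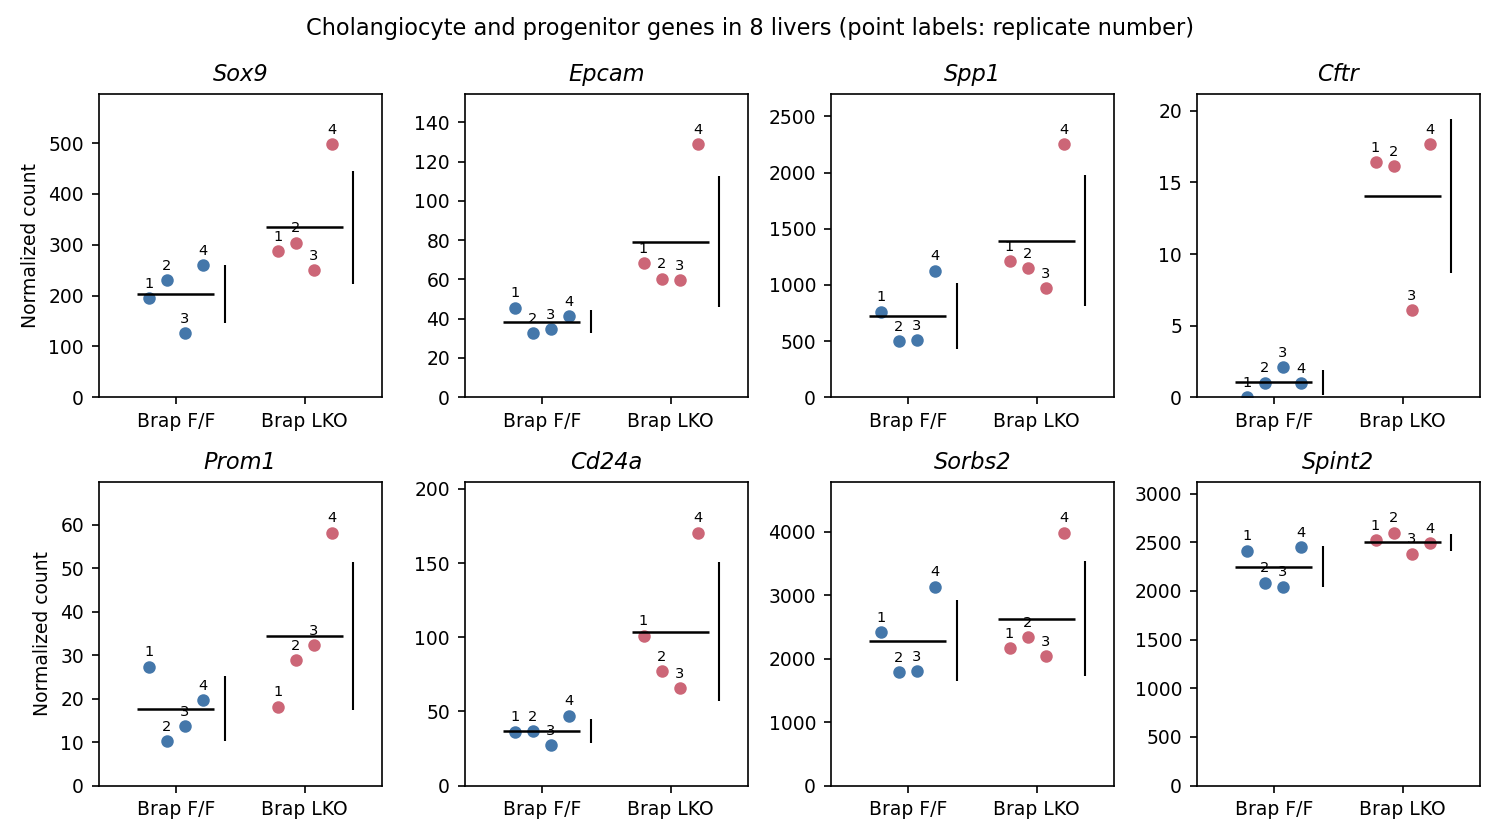
Normalized count (linear axis from 0) of each gene in the 4 Brap F/F and 4 Brap LKO livers. Points are single livers labelled with their replicate number, horizontal bars are group means and vertical bars are ± 1 SD. Brap LKO replicate 4 is the highest of all 8 livers in 7 of the 8 genes.

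Cftr showed the largest difference. It encodes the cAMP-gated chloride channel on the luminal membrane of cholangiocytes, and in liver it is a marker of duct cells rather than of hepatocytes. The normalized counts were 16.4, 16.1, 6.07 and 17.7 in Brap LKO replicates 1 to 4 and 0, 1.02, 2.10 and 0.981 in Brap F/F replicates 1 to 4. Every Brap LKO liver was above every Brap F/F liver, and Brap LKO replicate 3 was well below the other three. The means were 14.1 ± 5.38 and 1.03 ± 0.859 (SD, n = 4 each), and the log2 fold change was 2.91 (SE 0.47, 95% confidence interval 1.85 to 3.97, limma adjusted p = 0.0331). The exact permutation p was 0.0286, the smallest that 4 against 4 livers allow. These counts rest on few reads: 60 in total over the Brap LKO livers and 4 over the Brap F/F livers, a ratio of 13.6 after scaling for depth with a 95% exact interval of 5.04 to 51.5 that covers counting error only. With edgeR the adjusted p was 0.0313 and with DESeq2 it was 0.00152. The limma call was lost when Brap LKO replicate 1, 2 or 4 or Brap F/F replicate 1 or 2 was left out, with adjusted p-values of 0.133, 0.0886, 0.108, 0.0598 and 0.0855, while the fitted log2 fold change ran between 2.61 and 3.24 over all 8 livers left out in turn. The size depends more on the processing, because the control counts are close to the pseudocount of 1. It was 1.62 with a pseudocount of 5, 3.37 with 0.5, 3.62 with edgeR and 3.76 with DESeq2.

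Cftr lies on the plus strand of mm10 at chr6:18170687-18322768. The RefSeq promoter (GRCm38.p6, the assembly of mm10, plus strand, chr6:18170437-18170736, from 250 bases before to 50 bases after the start) is shown because this is the gene that was called. It was searched on both strands, as were those of the other genes, for CATTCC (a core of the TEAD site, through which YAP acts), TGGGAA (a core of the RBPJ site, through which Notch acts) and TATAAA. These words occur in 14.7%, 25.6% and 13.6% of 32851 mouse promoters of the same length. CATTCC and TGGGAA can overlap when both strands are searched. None of the 3 words is in the Cftr window, which is 71.3% G or C with 31 CpG dinucleotides, against medians of 52.7% and 7 over all promoters.
Cftr: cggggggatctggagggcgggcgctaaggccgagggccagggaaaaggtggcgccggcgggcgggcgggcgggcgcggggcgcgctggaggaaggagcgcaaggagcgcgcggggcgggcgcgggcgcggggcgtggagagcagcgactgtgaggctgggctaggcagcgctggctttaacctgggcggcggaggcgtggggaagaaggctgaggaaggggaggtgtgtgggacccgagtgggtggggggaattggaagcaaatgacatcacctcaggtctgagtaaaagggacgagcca

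Cd24a and Epcam encode proteins of the cell surface. CD24 is a small, heavily glycosylated protein anchored in the membrane by a lipid, and it is found on cholangiocytes, progenitor cells and also on B cells and neutrophils. Cd24a stood at 101, 77.3, 65.8 and 171 in Brap LKO replicates 1 to 4 and at 36.5, 36.6, 27.3 and 47.1 in Brap F/F replicates 1 to 4. The lowest Brap LKO liver was above the highest Brap F/F liver, and Brap LKO replicate 4 was the highest. The means were 104 ± 47.0 and 36.9 ± 8.08 (SD, n = 4 each), with a log2 fold change of 1.39 (SE 0.29, 95% confidence interval 0.73 to 2.05) that did not pass the threshold (limma adjusted p = 0.0712, exact permutation p = 0.0286). DESeq2 gave an adjusted p of 0.000793 and edgeR 0.0718. Of the B cell markers, 2 of 4 were also higher in every Brap LKO liver, which held for 5.48% of all genes tested. At an unadjusted p under 0.05, 2 were higher (background 9.23%). Limma and edgeR called 0 of them, and DESeq2 called 1 higher (background 2.96%). The summed level of the B cell markers was 53.6 to 95.6 in the Brap LKO livers and 28.5 to 42.0 in the Brap F/F livers. Their part in the Cd24a values was not tested. Cd24a lies at chr10:43578284-43584265 on the plus strand.

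EPCAM is a homotypic adhesion molecule of epithelia that adult hepatocytes largely lack. Epcam stood at 68.3, 60.3, 59.7 and 129 in Brap LKO replicates 1 to 4 and at 45.6, 32.5, 34.7 and 41.2 in Brap F/F replicates 1 to 4. The groups did not overlap. Brap LKO replicates 1 to 3 lay close together, between 59.7 and 68.3, and Brap LKO replicate 4 was apart from them. The means were 79.3 ± 33.3 and 38.5 ± 6.00 (SD, n = 4 each), and the log2 fold change was 0.96 (SE 0.26, 95% confidence interval 0.38 to 1.54, limma adjusted p = 0.127, exact permutation p = 0.0286), past the threshold with DESeq2 (adjusted p = 0.0225) and not with edgeR (adjusted p = 0.125). Without Brap LKO replicate 4 the ratio of the group means was 1.63.

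Epcam lies at chr17:87635979-87651129 on the plus strand. Its RefSeq promoter (GRCm38.p6, plus strand, chr17:87635729-87636028), shown as the second of the members whose groups did not overlap, holds none of the 3 words and is 57.0% G or C with 11 CpG dinucleotides. For Cd24a and for Sox9 no promoter was used here.
Epcam: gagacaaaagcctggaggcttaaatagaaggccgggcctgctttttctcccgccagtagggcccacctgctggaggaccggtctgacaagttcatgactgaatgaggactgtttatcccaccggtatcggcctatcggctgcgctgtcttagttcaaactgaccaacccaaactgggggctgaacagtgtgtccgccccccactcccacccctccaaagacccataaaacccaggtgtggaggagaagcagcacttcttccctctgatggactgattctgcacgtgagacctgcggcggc

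Prom1 encodes prominin-1 (CD133), a pentaspan protein of membrane protrusions that is used to isolate hepatic progenitor cells. Its counts were 18.2, 28.9, 32.4 and 58.2 in Brap LKO replicates 1 to 4 and 27.4, 10.2, 13.7 and 19.6 in Brap F/F replicates 1 to 4. Here the groups overlapped, since Brap LKO replicate 1 was below Brap F/F replicates 1 and 4. The means were 34.4 ± 17.0 and 17.7 ± 7.53 (SD, n = 4 each), and the log2 fold change was 0.89 (SE 0.39, 95% confidence interval 0.01 to 1.77, limma adjusted p = 0.311, exact permutation p = 0.114). Prom1 lies at chr5:43993620-44102032 on the minus strand and shares 5.91% of its exon bases with Gm16401 on the opposite strand. Whether the authors counted by strand is not given in the sources used here. Of its 2 RefSeq promoters, the first (GRCm38.p6) holds TGGGAA on the opposite strand, beginning 116 bases before the start.

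SOX9 is the transcription factor that marks the ductal plate of the embryo, the adult bile duct and hepatocytes with ductal features. Sox9 was measured at 286.9, 304.1, 249.9 and 498.2 in Brap LKO replicates 1 to 4 and at 195.0, 229.8, 126.1 and 260.0 in Brap F/F replicates 1 to 4. Brap LKO replicate 3 was below Brap F/F replicate 4, and in the other 15 of the 16 pairs of a Brap LKO and a Brap F/F liver the Brap LKO liver was higher. The means were 335 ± 111 and 203 ± 57.6 (SD, n = 4 each), with a log2 fold change of 0.72 (SE 0.26, 95% confidence interval 0.13 to 1.30, limma adjusted p = 0.239, exact permutation p = 0.0571). Sox9 lies at chr11:112782224-112787760 on the plus strand.

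Spp1 encodes osteopontin, a secreted phosphoprotein that binds integrins. Cholangiocytes make it in the normal liver, and macrophages and stellate cells can make it in an injured one. The counts were 1211, 1146, 969 and 2254 in Brap LKO replicates 1 to 4 and 760, 500.4, 506 and 1125 in Brap F/F replicates 1 to 4. Brap LKO replicate 3 was below Brap F/F replicate 4, so the groups overlapped in 1 of 16 pairs, and Brap LKO replicate 4 stood highest. The means were 1395 ± 582 and 723 ± 294 (SD, n = 4 each), and the log2 fold change was 0.95 (SE 0.31, 95% confidence interval 0.25 to 1.65, limma adjusted p = 0.198, exact permutation p = 0.0571). Markers of lipid-associated macrophages, a type that makes osteopontin, had a summed level of 516 to 748 in the Brap LKO livers and 343 to 540 in the Brap F/F livers. All 5 had a fitted value above 0 (median 1.98), where 48.0% of all genes tested did. Limma called 1 (background 0.664%), Gpnmb, a membrane glycoprotein of such macrophages (log2 fold change 2.20, SE 0.40, limma adjusted p = 0.0480). At an unadjusted p under 0.05, 3 were higher (background 9.23%), and 2 did not overlap between the groups (background 5.48%). DESeq2 called 2 of these markers higher (background 2.96%) and edgeR 1 (background 0.703%). Their part in the Spp1 values was not tested.

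Spp1 lies at chr5:104435118-104441050 on the plus strand, and 18.8% of its exon bases are shared with Gm42793 on the same strand, so reads there could have been assigned to either gene or left out. The first of its 2 RefSeq promoters (GRCm38.p6, plus strand, chr5:104434861-104435160) is shown as an example that holds a word searched, TATAAA, in capitals, which begins 211 bases before the start. It is 45.3% G or C with 3 CpG dinucleotides, so it has the lowest G and C content of the first promoters of the 6 genes matched.
Spp1: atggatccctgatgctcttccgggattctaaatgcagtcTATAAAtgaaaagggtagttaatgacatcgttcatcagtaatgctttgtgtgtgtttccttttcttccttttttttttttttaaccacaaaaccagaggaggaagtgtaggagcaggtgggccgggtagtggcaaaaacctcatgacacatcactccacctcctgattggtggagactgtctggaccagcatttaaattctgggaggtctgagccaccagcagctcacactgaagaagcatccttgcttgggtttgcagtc

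Sorbs2 and Spint2 were the members with the smallest differences. SORBS2 is an adaptor protein of the actin cytoskeleton and of cell junctions. Sorbs2 counts were 2167, 2341, 2040 and 3987 in Brap LKO replicates 1 to 4 and 2414, 1786, 1806 and 3133 in Brap F/F replicates 1 to 4. The groups overlapped widely, and the fourth liver was the highest of each. The log2 fold change was 0.19 (SE 0.24, 95% confidence interval -0.35 to 0.73, limma adjusted p = 0.723, exact permutation p = 0.514). It was -0.028 without Brap LKO replicate 4, so its direction rests on that liver. Sorbs2 lies at chr8:45507788-45827906 on the plus strand, with 3.77% of its exon bases shared with the antisense gene Sorbs2os.

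SPINT2 is a Kunitz-type inhibitor of serine proteases that holds matriptase, hepsin and the activator of hepatocyte growth factor in check. Spint2 counts were 2519, 2599, 2385 and 2491 in Brap LKO replicates 1 to 4 and 2415, 2086, 2045 and 2447 in Brap F/F replicates 1 to 4. It varied least between livers, with a coefficient of variation of 3.56% in the Brap LKO group and 9.44% in the Brap F/F group. The log2 fold change was 0.16 (SE 0.08, 95% confidence interval -0.02 to 0.33, limma adjusted p = 0.361, exact permutation p = 0.0857). The interval takes in no change and does not reach the fitted value of any member but Sorbs2. Spint2 lies at chr7:29256323-29281912 on the minus strand. Its promoter is 69.3% G or C and holds none of the 3 words, and of the 3 promoters of Sorbs2 the first holds TGGGAA, beginning 240 bases before the start.

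**Figure D2:**
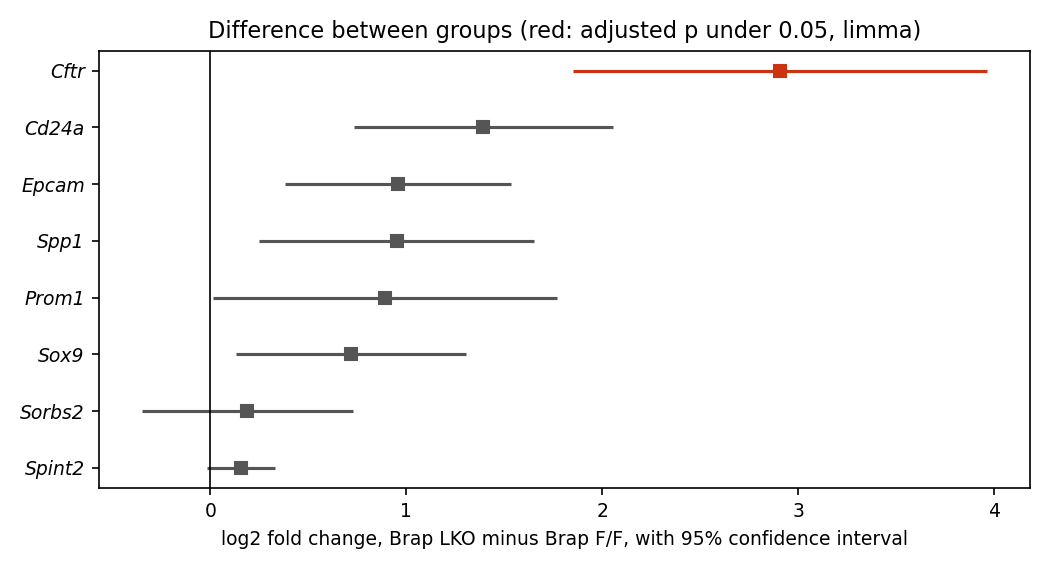
Fitted log2 fold change of the 8 genes, Brap LKO minus Brap F/F on the log2(normalized count + 1) scale (x axis), with 95% confidence intervals from limma as horizontal lines (n = 4 livers a group). Cftr at 2.91 is the 1 gene past the adjusted threshold, and the intervals of Sorbs2 and Spint2 include 0.

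Levels were compared between genes per length, as reads per kilobase of exon scaled to the reads counted in each liver (RPKM). The length was that of all annotated exons of a gene merged, 27851 bases for Sorbs2 and 4556 for Spint2. A gene whose liver transcripts use only part of that length reads too low, so the order depends on the annotation. In the Brap F/F livers the order was Spint2 (15.8 ± 2.05), Spp1 (14.1 ± 6.05), Sorbs2 (2.63 ± 0.798), Sox9 (1.57 ± 0.453), Epcam (0.562 ± 0.109), Cd24a (0.457 ± 0.108), Prom1 (0.0797 ± 0.0369) and Cftr (0.00414 ± 0.00346), each level as mean and SD over 4 livers. The ranges over livers overlapped between Spint2 and Spp1, between Sorbs2 and Sox9 and between Epcam and Cd24a. The other neighbours in this order did not overlap. In the Brap LKO livers Spp1 (30.2 ± 12.9) came before Spint2 (19.5 ± 0.992) and Cd24a (1.44 ± 0.668) before Epcam (1.29 ± 0.556), while the other 4 genes held their places. The lowest Spp1 level there, 20.3, was above the highest Spint2 level, 20.2, whereas Cd24a and Epcam overlapped. Cftr was lowest in both groups, at 0.0648 ± 0.0255 in the Brap LKO livers.

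The 8 genes differed between livers of the same group in a shared way. Brap LKO replicate 4 was the highest of the 4 Brap LKO livers in 7 of the 8 genes (all but Spint2), whereas it was the highest of them for 31.1% of all genes tested. Brap LKO replicate 3 was the lowest of its group in 7 genes, and Brap F/F replicate 4 was the highest of its group in 5. The mean deviation of the 8 genes from their average over all livers, on the log2 scale, was 0.38, 0.41, 0.13 and 1.12 for Brap LKO replicates 1 to 4 and -0.46, -0.68, -0.71 and -0.19 for Brap F/F replicates 1 to 4. Every Brap LKO liver was therefore above every Brap F/F liver in this mean. Without Brap LKO replicate 4 the ratio of group means was 1.38 for Sox9, 1.63 for Epcam, 1.53 for Spp1, 12.6 for Cftr, 1.50 for Prom1, 2.21 for Cd24a, 0.955 for Sorbs2 and 1.11 for Spint2.

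**Figure D3:**
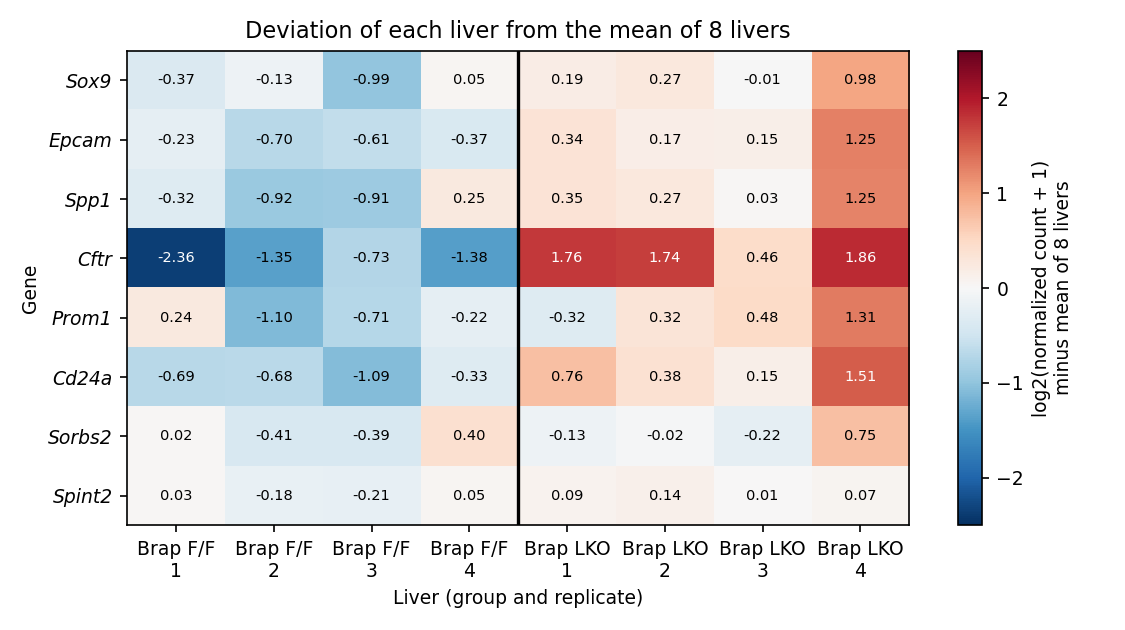
Deviation of each liver (columns, 4 Brap F/F then 4 Brap LKO) from the mean of all 8 livers on the log2(normalized count + 1) scale, for each gene (rows). Red is above and blue below the mean. Brap LKO replicate 4 is above the mean in every row, and Cftr has the widest span, from -2.36 in Brap F/F replicate 1 to 1.86 in Brap LKO replicate 4.

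By the animal numbers in their labels the mice form 2 series. The lower numbers hold Brap LKO replicates 1 to 3 and Brap F/F replicate 1, and the higher numbers hold the rest. The higher series pairs Brap LKO replicate 4 with 3 controls, so that the series and that liver cannot be told apart. Within the lower series the ratio of group means was 1.44 for Sox9, 1.38 for Epcam, 1.46 for Spp1, 2.23 for Cd24a, 0.968 for Prom1, 0.904 for Sorbs2 and 1.04 for Spint2, and within the higher series it was 2.43, 3.57, 3.17, 4.61, 4.02, 1.78 and 1.14 in the same order. Prom1 and Sorbs2 thus had no higher mean in the Brap LKO livers of the lower series. For Cftr the lone Brap F/F liver of the lower series was at 0 and the ratio in the higher series was 12.9. With the series as a covariate Cftr kept its call (limma adjusted p = 0.0313).

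A further 7 lists of biliary and progenitor genes, 61 genes of which 57 were tested, were read in the same fit. The lists too were chosen with earlier results of these data known, so the backgrounds here are also for reference only. Their median log2 fold change was 0.50, and 47 were fitted above 0 and 10 below. There were 5 past the limma threshold (background 0.664%), each of them higher: Sox4, Cldn4, Bicc1, Cys1 and Ccn1. None was lower by limma or edgeR (0 each), with 1 lower at an unadjusted p under 0.05 (background 6.59%) and 1 by DESeq2 (background 1.11%). At an unadjusted p under 0.05, 25 were higher (background 9.23%). DESeq2 called 13 of them higher (background 2.96%) and edgeR 4 (background 0.703%). The limma calls fell to 2 without Brap LKO replicate 2, to 1 without Brap LKO replicate 3 or 4, and to 0 without Brap LKO replicate 1 as well as without any of Brap F/F replicates 1 to 3, and there were 5 without Brap F/F replicate 4. Brap LKO replicate 4 was the highest of its group in 38 of the 57.

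**Figure D4:**
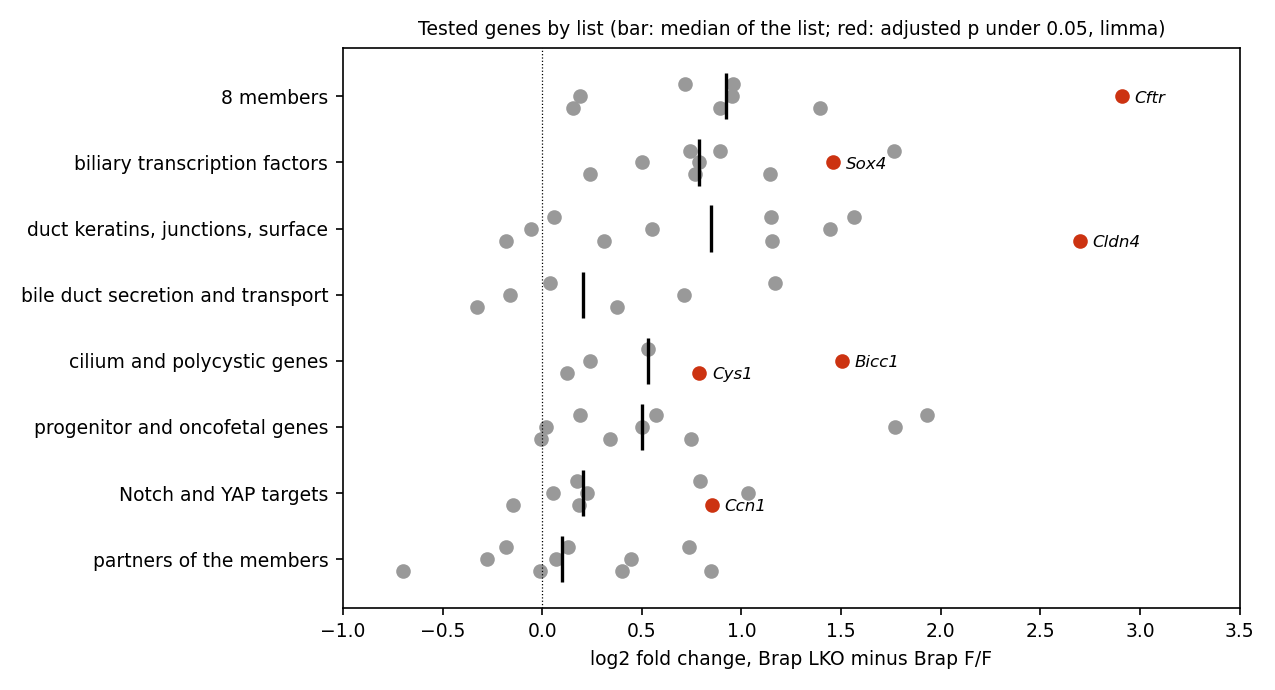
Fitted log2 fold change, Brap LKO minus Brap F/F (x axis), of every tested gene of the 8 members and of the 7 lists (rows, points spread vertically for legibility). Vertical bars are list medians, and red named points passed the adjusted limma threshold. List medians run from 0.10 for partners of the members to 0.85 for duct keratins, junction and surface proteins, and the members stand at 0.92.

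All 9 biliary transcription factors were fitted above 0 (median 0.79), 6 at an unadjusted p under 0.05. SOX4 acts with SOX9 in forming bile ducts. Sox4 rose from 51.6 ± 10.5 in the Brap F/F livers to 148 ± 52.6 in the Brap LKO livers (SD, n = 4 each), from 41.0 to 63.8 against 106 to 225 by liver, with a log2 fold change of 1.46 (SE 0.24, limma adjusted p = 0.0349). Ehf, an epithelial ETS factor, was at 13.3 ± 5.13 and 48.6 ± 23.1 (log2 fold change 1.76, SE 0.38, limma adjusted p = 0.0750).

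Of the duct keratins, junction and surface proteins 10 of 11 were tested, 8 were fitted above 0 (median 0.85) and 5 had an unadjusted p under 0.05. Cldn4, a tight junction claudin of ducts, was the 1 called (log2 fold change 2.70, SE 0.50, limma adjusted p = 0.0494). Its reads were 12, 5, 9 and 21 in Brap LKO replicates 1 to 4 and 0, 1, 1 and 1 in Brap F/F replicates 1 to 4, a depth-scaled ratio of 14.2 with a 95% exact interval of 4.57 to 71.3. Like Cftr it was near the lowest levels that could be tested, and every Brap LKO liver was above every Brap F/F liver. Also like Cftr, it passed the filter only through the Brap LKO livers, with a mean of 0.762 in the Brap F/F livers. The Cldn4 call was lost with a pseudocount of 0.5 or 5, with quantile normalization and with edgeR (adjusted p = 0.0583), and it held with TMM and with DESeq2 (adjusted p = 0.00903). The keratins that define biliary epithelium were present in all livers. Krt19 was at 17.5 ± 6.34 in the Brap F/F and 41.0 ± 19.5 in the Brap LKO livers without overlap (log2 fold change 1.15, SE 0.36, limma adjusted p = 0.181, exact permutation p = 0.0286), and Krt7 was at 24.3 ± 7.48 and 35.6 ± 8.93 with overlap (0.55, SE 0.27, limma adjusted p = 0.352). Krt23, the other keratin of the list, was at 86.4 ± 81.2 and 69.1 ± 48.8 with overlap (-0.05, SE 0.75, limma adjusted p = 0.978). Cdh1, the epithelial cadherin, varied widely among controls, at 1068, 270, 215 and 1883 in Brap F/F replicates 1 to 4 against 1449, 1688, 1328 and 2766 in Brap LKO replicates 1 to 4 (log2 fold change 1.56, SE 0.64, limma adjusted p = 0.285). Brap F/F replicates 1 and 4 were the higher pair there, as they also were in 5 members, Epcam, Spp1, Prom1, Sorbs2 and Spint2.

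The list of cilium and polycystic liver genes had 2 of 5 called, with all 5 fitted above 0 (median 0.53) and 4 at an unadjusted p under 0.05. Cholangiocytes carry a primary cilium and hepatocytes do not. Bicc1, an RNA-binding protein whose loss gives cystic ducts, rose from 91.9 ± 14.3 to 274 ± 108 (log2 fold change 1.50, SE 0.24, limma adjusted p = 0.0313). Cys1, the ciliary protein cystin, rose from 168 ± 15.4 to 293 ± 42.4 (0.79, SE 0.13, limma adjusted p = 0.0337). In both genes every Brap LKO liver was above every Brap F/F liver. Cys1 was highest in Brap LKO replicate 1, at 320 beside 303 in replicate 4, so it did not share the peak in replicate 4 that the members showed.

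Genes of bile duct secretion and transport held none past the limma threshold (0 of 6 tested, 4 fitted above 0, median 0.21, with 3 higher at an unadjusted p under 0.05, 2 by DESeq2 and 0 by edgeR). Slc5a1, a sodium-glucose transporter, was at 24.9 ± 5.93 in the Brap F/F and 61.1 ± 33.0 in the Brap LKO livers (log2 fold change 1.17, SE 0.33, limma adjusted p = 0.147). Ano1, a calcium-gated chloride channel, was at 60.0 ± 7.77 and 98.9 ± 12.8 (0.71, SE 0.15, limma adjusted p = 0.0750), and neither gene overlapped between the groups.

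Progenitor and oncofetal genes likewise held none past the limma threshold (0 of 9 tested, 8 fitted above 0, median 0.50, with 3 higher at an unadjusted p under 0.05, 2 by DESeq2 and 0 by edgeR). Ncam1, an adhesion molecule of reactive ductules, was at 6.92 ± 2.74 and 29.4 ± 12.5 without overlap (log2 fold change 1.93, SE 0.37, limma adjusted p = 0.0566). Afp, the fetal serum protein, was at 31.9, 18.3, 12.6 and 62.8 in Brap F/F replicates 1 to 4 and at 31.9, 62.9, 539 and 64.5 in Brap LKO replicates 1 to 4 (1.77, SE 0.81, limma adjusted p = 0.331). Its high liver was Brap LKO replicate 3, which was the lowest of its group in 7 of the 8 members.

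Among Notch and YAP targets of the ductal programme 7 of 8 were fitted above 0 (median 0.20), 2 had an unadjusted p under 0.05 and 1 was called. Ccn1, a matricellular protein and YAP target, rose from 170 ± 25.5 to 308 ± 58.4 (log2 fold change 0.85, SE 0.15, limma adjusted p = 0.0469). The Ccn1 call was lost with a minimum mean of 20, quantile normalization, a replicate block or the animal series as covariate. It held with a pseudocount of 0.5 or 5, TMM, edgeR and DESeq2. Hey1, a Notch target, was at 13.5 ± 7.47 and 25.0 ± 6.21 with overlap (1.03, SE 0.47, limma adjusted p = 0.329). The partners of the member proteins, which are osteopontin receptors, the CD24 receptor and the proteases that SPINT2 inhibits, held none past the limma threshold (0 of 10 tested, 6 fitted above 0, median 0.10, with 2 higher and 1 lower at an unadjusted p under 0.05, 1 lower by DESeq2 and 0 by edgeR). St14, which encodes matriptase, was at 21.4 ± 1.54 and 41.7 ± 18.3 without overlap (0.85, SE 0.27, limma adjusted p = 0.183). The other proteases of the list had lower values in every Brap LKO liver than in any Brap F/F liver. Hgfac, the activator of hepatocyte growth factor and the 1 gene of the list that DESeq2 called (adjusted p = 0.00513), was at 8663 ± 515 in the Brap F/F and 7137 ± 309 in the Brap LKO livers (-0.28, SE 0.07, limma adjusted p = 0.107). Hpn, which encodes hepsin, was at 15342 ± 1220 and 13524 ± 920 (-0.18, SE 0.09, limma adjusted p = 0.354). Siglecg, the CD24 receptor, was at 8.74 ± 3.32 and 14.9 ± 3.99 with overlap (0.74, SE 0.34, limma adjusted p = 0.329).

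Markers of other cell types in a liver sample were read beside the members. Of 7 markers of stellate cells and fibroblasts 6 were fitted above 0 (median 0.51) and Pdgfrb, the receptor for platelet-derived growth factor, was called (log2 fold change 0.91, SE 0.17, limma adjusted p = 0.0494). Their summed level was 3848 to 6176 in the Brap LKO and 2717 to 4603 in the Brap F/F livers. Macrophage markers (5 of 5 above 0, median 0.44) summed to 4349 to 7468 and 4256 to 5629, endothelial markers (5 of 5, median 0.26) to 4571 to 6648 and 3966 to 5760, and neutrophil markers (2 of 2 tested, median 0.33) to 7.29 to 57.2 and 5.09 to 41.0. Hepatocyte markers had 4 of 6 fitted below 0 (median -0.31), erythroid markers 4 of 4 (median -0.11), mesothelial markers 3 of 4 (median -0.26) and the intestinal markers analysed 2 of 2 (median -0.32). The intestinal list of 5 markers was read through Lgals4 and Fabp2 alone. Of the lists in this paragraph the stellate list alone held a call by limma or edgeR. At an unadjusted p under 0.05 there were 2 higher macrophage markers, 4 higher stellate markers, 1 lower hepatocyte marker and 1 lower intestinal marker, and DESeq2 called 1 macrophage and 3 stellate markers higher. Over all genes tested 9.23% were higher and 6.59% lower at an unadjusted p under 0.05, and DESeq2 called 2.96% higher. The pancreatic acinar markers were not analysed here. Brap LKO replicate 4, the highest liver in 7 members, had the highest sum of its group for lipid-associated macrophages, neutrophils and mesothelium and the lowest for hepatocytes, endothelium, erythroid cells and the intestinal markers. A sum is weighted to the most abundant markers, and 2 of the 6 hepatocyte markers were highest of their group in that liver. By the mean log2 deviation of the hepatocyte markers Brap LKO replicate 1 was the lowest, at -0.271 beside -0.206 in replicate 4. The part of these cell types in the members' values was not tested.

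The pattern most like the mean of the 8 members over the 8 livers was sought among 15290 other tested genes, as the mean absolute difference between the deviations on the log2 scale. The closest were Rnf32 (0.0688), Galnt3 (0.0847), Lynx1 (0.0910), Npdc1 (0.128) and Emp2 (0.135). Of the members themselves Epcam was closest to their mean, at 0.118, and Cftr the farthest, at 0.944. Lynx1, a modulator of nicotinic acetylcholine receptors, was at 26.3 ± 3.25 in the Brap F/F and 52.4 ± 9.71 in the Brap LKO livers.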

How the data were processed

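Bulk RNA of the left liver lobe was analysed for 4 Brap LKO and 4 Brap F/F mice, grouped by the labels. Per the methods, the NuGEN Universal Plus mRNA kit was used, reads were single-end (50 bases), and STAR 2.6.0c aligned them to mm10. The read counter, annotation and strand setting are not given in the sources used here. The deposited signal is a count of reads per gene that the authors scaled with DESeq2 size factors, 1 per liver. Every value (100%, tolerance 0.01) was a whole multiple of its liver's step, so reads were recovered. The authors' own DESeq2 comparison (log2 fold changes and p-values) was not used.

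The main test was limma 3.58.1 in R 4.3.3 (lmFit, eBayes with trend, no covariates) on log2(normalized count + 1) for genes with a mean of at least 5, with Benjamini-Hochberg adjustment. Because the deposited values are not counts, edgeR 4.0.16 and DESeq2 1.42.0, the paper's tool, were run on the recovered reads as alternatives. Single genes had two-sided exact permutation tests over 70 arrangements. The fits were tested on simulated data with the same spread setting for all genes, not matched to the spread between these livers. Changes were placed only in genes with more reads than Cftr or Cldn4. The members and gene lists were chosen with earlier results of these data known. Named from each list were the genes past the threshold and the 2 with the largest absolute log2 fold change. Krt7 and Krt19 were named as biliary markers (a further marker is not reported here), and Krt23, Hgfac, Hpn, Gpnmb and Pdgfrb after their values were seen. Positions and exon lengths came from GENCODE (GRCm38), and promoters, given for 6 of the 8 members, from RefSeq (GRCm38.p6). Counts of 26280884 to 33313914 reads per liver set the precision, and intervals on reads cover counting error only. Alternatives covered the pseudocount, the filter, the normalization, the count tests, a replicate block, the animal series and each liver left out.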

Additional observations from a re-analysis of the deposited data

Results flagged for a closer look

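In each group of 4 livers, the highest and lowest value of every gene described was set against the others by Dixon's test at the 95% level. Over 68 groups (34 genes) 8 values stood apart, beside about 3.4 for independent, normally distributed groups. Many of these genes were named for their values and several peak in the same liver, so whether 8 exceeds chance was not tested. Epcam was 129 in Brap LKO replicate 4, with the other Brap LKO livers between 59.7 and 68.3. Sorbs2 was 3987 in Brap LKO replicate 4, with the others between 2040 and 2341. Slc5a1 was 110.2 in Brap LKO replicate 4, with the others between 39.1 and 49.6. Hpn was 12160 in Brap LKO replicate 4, with the others between 13790 and 14112. Cftr was 6.07 in Brap LKO replicate 3 (6 reads), with the others between 16.1 and 17.7. Afp was 539 in Brap LKO replicate 3 (533 reads), with the others between 31.9 and 64.5. Cldn4 was 0 in Brap F/F replicate 1, where each of the other controls had 1 read (0.981 to 1.05). Hgfac was 9431 in Brap F/F replicate 4, with the other controls between 8348 and 8472. Brap LKO replicate 4 accounts for 4 of the 8 values. What sets these livers apart was not tested.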

How the results depend on the processing

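Cftr was the 1 member called, and 5 genes of the further lists and 102 higher and 16 lower genes overall were called. With a pseudocount of 0.5 or 5, no filter, TMM, edgeR or the animal series, Cftr kept its call, whereas Cldn4 lost its call with either pseudocount and with edgeR. With a minimum mean of 20, Cftr was no longer tested, so 0 members were called, with 3 genes of the further lists and 9 lower genes overall. With the same total per liver, which moved the median of all genes to 0.15, there were 2 members (Cftr, Cd24a), 11 further genes and 459 higher genes overall. With quantile normalization there were 1 further gene (Bicc1) and 62 higher genes overall. DESeq2 called 3 members (Cftr, Cd24a, Epcam), 14 further genes (13 higher, 1 lower), and 455 higher and 170 lower genes overall. Leaving out each liver in turn gave 0 to 1 members, 0 to 5 further genes, and 11 to 178 higher and 4 to 54 lower genes overall. The fewest higher genes came without Brap LKO replicate 1 and the most without Brap F/F replicate 4. Over the same fits the log2 fold change of Sorbs2 ran from -0.028 without Brap LKO replicate 4 (limma adjusted p = 0.958) to 0.35 without Brap F/F replicate 4. Apart from losing or adding samples or genes, the cause was not tested.

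The labels used here do not say whether the replicate numbers pair the mice, and the main test used no pairing. Deviations of same-numbered livers correlated at -0.129, 0.00336, 0.196 and 0.292, and 3 of 4 Brap LKO livers correlated best with their own number. With a replicate block 2 members were called (Spp1 and Cd24a, not Cftr at a limma adjusted p of 0.0771) and 2 further genes, with 80 higher and 15 lower genes overall. Depth limits Cftr and Cldn4 most, since both had at most 2 reads in any control liver.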
